A study of Rattus norvegicus with 18 samples.

Results

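The 36 genes described here form the Hippo pathway and its nuclear output: kinases and adaptors (10 genes), regulators that bind or modify the effectors (7), the effectors Yap1, Wwtr1 and Tead1 to Tead4 (6), and genes known as YAP and TAZ targets (13). They were chosen by name, without the CCN family. The table writes them in capitals: LATS1, LATS2, STK3, STK4, SAV1, MOB1A, MOB1B, NF2, TAOK1 and WWC1 are the kinases and adaptors, AMOT, AMOTL1, AMOTL2, AJUBA, LIMD1, PTPN14 and VGLL4 the regulators, and ANKRD1, AXL, CRIM1, F3, NUAK2, FJX1, ARHGEF17, DOCK5, ASAP1, MYOF, NT5E, RBMS3 and IGFBP3 the targets. All 36 were among the 28909 gene names of the deposited RNA table. All 36 also passed the filter on low values that left 15204 genes for testing.

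The 2 groups were neonatal rat ventricular cardiomyocytes treated for 0.5 h with 25 µM blebbistatin, an inhibitor of myosin II that keeps the motor from pulling on actin, and the same kind of cells given the solvent DMSO (3 RNA libraries each). A dose of 0.25 also stands in the design text, against 25 µM in the protocol and the sample labels. All cells came from wild-type Sprague-Dawley rats on day 1 after birth, were depleted of fast-attaching cells by pre-plating, and were kept on collagen in medium with little serum. The 12 samples of H3K9me3 chromatin immunoprecipitation and input are not analysed here. Whether the 3 libraries per group are separate cell isolations is not stated, so each p-value measures the spread between these libraries, which may be technical.

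In the Hippo pathway, the MST kinases (Stk3, Stk4) with the adaptor Sav1 phosphorylate the LATS kinases with their MOB1 coactivators, and LATS kinases phosphorylate YAP and its relative TAZ (Wwtr1), which holds them in the cytoplasm. Unphosphorylated YAP and TAZ enter the nucleus and switch on genes through TEAD transcription factors. Tension in the actomyosin cytoskeleton is known to favour nuclear YAP and TAZ, and in the heart the pathway is known for its restraint of cardiomyocyte proliferation. RNA levels do not report the phosphorylation or the location of these proteins.

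At 0.5 h none of the 36 genes passed the test for a difference in RNA level, limma with Benjamini-Hochberg adjustment over all 15204 genes (0 higher and 0 lower at an adjusted p under 0.05). In the same test 0.00658% of all genes were called higher and 0.0132% lower, which is 0.0197% in either direction, so a count of 0 among 36 is near the background. The adjusted p of the 36 ran from 0.991 to 0.993. At an unadjusted p under 0.05 the count was also 0 among the 36, against 1.52% of all genes (0.743% higher and 0.776% lower). It remained 0 without DMSO replicate 1, where 0.73% of all genes were higher and 0.848% lower in this sense. Without DMSO replicate 3 it was 4 lower and 0 higher (Amot, Dock5, Taok1 and Tead1, limma adjusted p = 0.596 for each), against 2.86% and 3.22% of all genes. The 95% interval of the log2 fold change lay within -1 and 1 for 33 of the 36 genes, against 71.9% of all genes. The intervals of Taok1, Amotl1 and Dock5 reached below -1. Smaller differences could not be resolved: the median interval of the 36 extended 0.41 to either side. The interval of 20 of the 36 genes reached below -0.5, as did that of 7552 of the 15204 genes tested.

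**Figure D1:**
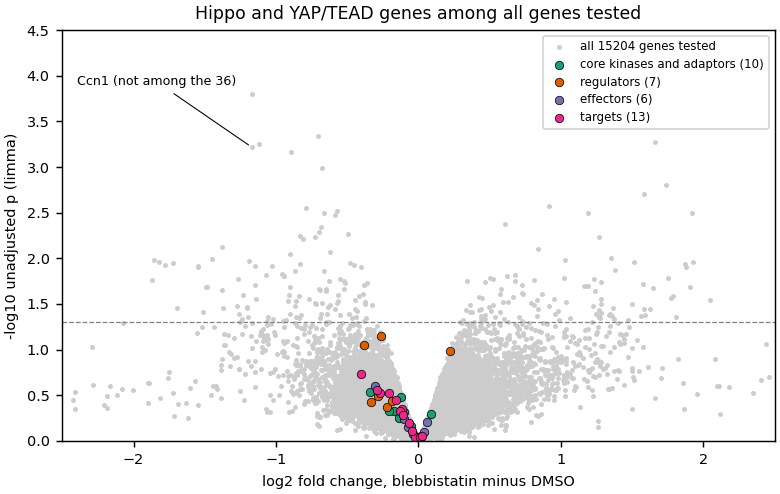
Each point is a gene, placed by its log2 fold change (blebbistatin minus DMSO) and by the -log10 of its unadjusted limma p. Coloured points are the 36 Hippo and YAP/TEAD genes, grey points all genes tested (46 genes lie outside the axes), and the dashed line marks an unadjusted p of 0.05. All 36 lie below the line, and the target Ccn1, which is not among them, lies above it.

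Of the 36 fold changes, 28 were negative and 8 positive, with a median of -0.12, while over all genes tested 49.3% were negative and the median was 0.0040. One control library, DMSO replicate 1, was unlike the rest: principal component 1, with 42% of the variance, placed it at 77.4 and the other 5 between -34.6 and 3.04. In deposited CPM, before TMM scaling, it was the highest of the 6 libraries for 18 of the 36 genes and the lowest for 8. On the same scale the shares of all genes were 26.4% and 42.1%. TMM scaling raised this library (factor 0.928), so its ranks can differ after scaling. Without DMSO replicate 1 the median of the 36 was -0.0094, with 22 negative and 14 positive, and that of all genes was -0.00042. The median level of the 36, relative to each gene's mean over the 6 libraries (log2), was -0.17, -0.0014 and -0.011 in blebbistatin replicates 1 to 3, and 0.25, 0.038 and -0.13 in DMSO replicates 1 to 3. The groups overlapped: blebbistatin replicate 1 was the lowest library, DMSO replicate 3 the next, and the other 2 controls were the highest.

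**Figure D2:**
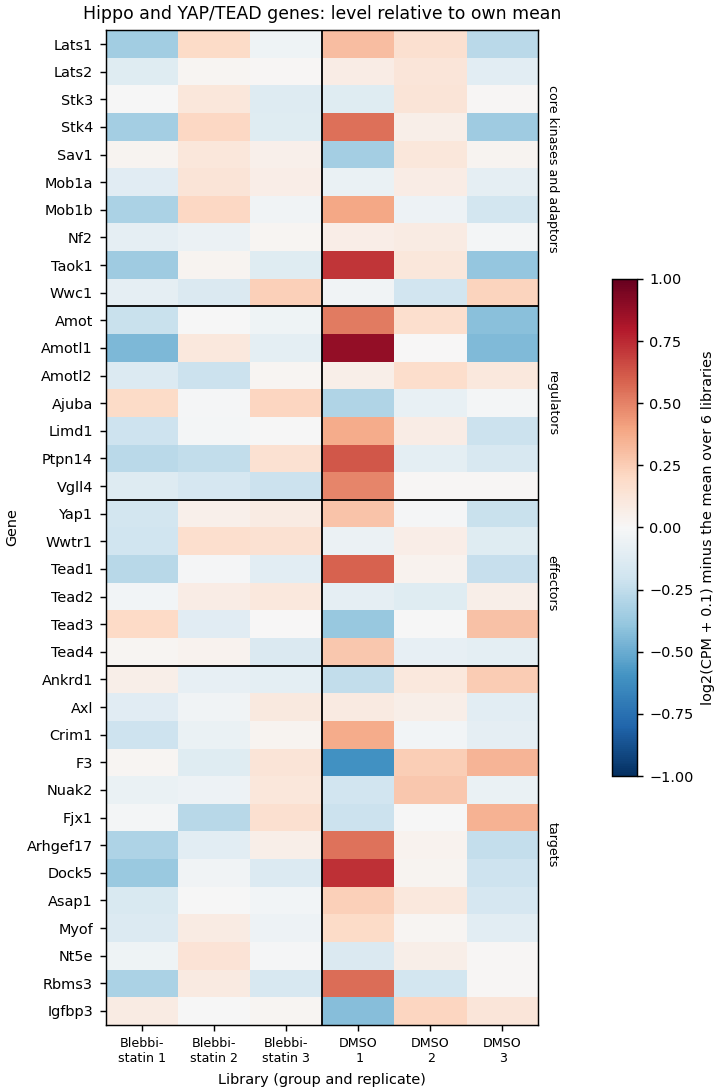
Rows are the 36 genes by role and columns the 6 libraries. Colour gives the log2 of CPM + 0.1 minus the gene's mean over the libraries, red above and blue below. DMSO replicate 1 holds the strongest colours in both directions, red for Amotl1, Taok1 and Dock5 and blue for F3, and no column block separates blebbistatin from DMSO.

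Cardiomyocyte markers were present, and so were markers of other cells. The 13 measured cardiomyocyte markers summed to between 23310 and 25270 CPM with blebbistatin and between 23430 and 28360 CPM with DMSO, with DMSO replicate 1 the highest. The 12 fibroblast markers summed to between 33750 and 38230 CPM with blebbistatin and between 33700 and 39190 CPM with DMSO, so fibroblast RNA was present in every library after pre-plating. The 10 macrophage and leukocyte markers summed to between 149 and 168 CPM with blebbistatin and between 74.0 and 167 CPM with DMSO, and the low value was DMSO replicate 1. The 5 red blood cell genes were highest in that library too, at 185 CPM in a DMSO range that began at 68.9 CPM, against 60.0 to 69.1 CPM with blebbistatin. Sums of endothelial markers (9 measured) ran from 102 to 110 CPM with blebbistatin and from 108 to 119 CPM with DMSO, with DMSO replicate 1 again the highest. Smooth muscle and pericyte markers (8) ran from 5250 to 5845 CPM with blebbistatin and from 4562 to 5943 CPM with DMSO, where DMSO replicate 1 was the lowest of all 6 libraries. Epicardial markers (6) ran from 29.2 to 30.2 CPM with blebbistatin and from 27.5 to 29.3 CPM with DMSO, the last in DMSO replicate 1. In none of these 7 lists did limma call a marker, and 0 markers had an unadjusted p under 0.05. Fewer cells of a type and less RNA per cell cannot be told apart in these bulk samples, and the part of cell makeup in the values below was not tested.

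Among the kinases and adaptors, levels in the 2 groups overlapped for all 10 genes. The log2 fold changes ran from -0.34 (Taok1) to 0.090 (Sav1), with a median of -0.11 that was -0.0065 without DMSO replicate 1. The kinase gene Lats1 was at 73.7, 107 and 90.9 CPM in blebbistatin replicates 1 to 3, and at 116, 105 and 77.6 CPM in DMSO replicates 1 to 3. Both groups thus spread over a similar range, with a log2 fold change of -0.17 ± 0.23 (SE, limma), which was -0.0037 without DMSO replicate 1. Its relative Lats2, which encodes a LATS kinase that is itself a known YAP target, was at 176, 194 and 194 CPM with blebbistatin and at 202, 209 and 178 CPM with DMSO. For Lats2 the log2 fold change was -0.10 ± 0.14, with a 95% interval from -0.42 to 0.22, and -0.035 without DMSO replicate 1.

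Taok1, a kinase that activates MST kinases, was at 60.8, 79.7 and 71.8 CPM with blebbistatin and at 128, 84.6 and 59.7 CPM with DMSO. DMSO replicate 1 was the highest and DMSO replicate 3 the lowest of the 6, so the treated libraries lay between the controls. For Taok1 the difference on the log2 scale was -0.34 ± 0.30, and -0.0096 ± 0.19 without DMSO replicate 1. Nf2 encodes merlin, a membrane-linked scaffold upstream of LATS. It was at 85.0, 86.9 and 91.7 CPM with blebbistatin and at 94.4, 95.9 and 89.1 CPM with DMSO, where only blebbistatin replicate 3 reached into the control range. Its log2 fold change was -0.12 ± 0.12, and -0.070 without DMSO replicate 1.

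The MST kinase genes Stk3 and Stk4 had log2 fold changes of -0.052 ± 0.13 and -0.21 ± 0.28, and the second was 0.068 without DMSO replicate 1. Stk4 overlaps Tomm34 in the RefSeq rat annotation, so its reads are uncertain. The adaptor gene Sav1 had a value of 0.090 ± 0.13. The coactivators of LATS, Mob1a and Mob1b, were at 0.017 ± 0.13 and -0.14 ± 0.23, and Wwc1, whose product KIBRA is a scaffold for LATS activation, was at -0.037 ± 0.19. Wwc1 had the lowest CPM of the 10, at 8.06 to 10.6 CPM with blebbistatin and 7.81 to 10.4 CPM with DMSO, a comparison that is not per transcript length.

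The regulators held the 3 genes whose groups did not overlap. All 3 blebbistatin libraries were below all 3 DMSO libraries for Amotl2 and Vgll4 and above them for Ajuba. Over all genes tested, 2.89% were separated in this way with blebbistatin lower and 3.24% with blebbistatin higher, 6.13% in all. The 3 genes did not pass limma's test. Their promoters, 250 bases before to 50 after the annotated start, are shown to set these separated genes beside the core sequence bound by TEAD factors, GGAATG on either strand, which is in capitals. The coordinates and strands are those of RefSeq on build GRCr8, a newer build than the rn6 named in the submitters' processing notes.
Amotl2, chr8:112182376-112182675, plus strand: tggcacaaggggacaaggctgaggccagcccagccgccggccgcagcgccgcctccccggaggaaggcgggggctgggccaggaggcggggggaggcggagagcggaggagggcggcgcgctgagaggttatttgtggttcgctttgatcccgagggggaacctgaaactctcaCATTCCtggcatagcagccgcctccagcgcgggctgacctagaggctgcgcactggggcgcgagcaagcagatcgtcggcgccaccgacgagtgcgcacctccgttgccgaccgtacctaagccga
Ajuba, chr15:31999993-32000292, minus strand: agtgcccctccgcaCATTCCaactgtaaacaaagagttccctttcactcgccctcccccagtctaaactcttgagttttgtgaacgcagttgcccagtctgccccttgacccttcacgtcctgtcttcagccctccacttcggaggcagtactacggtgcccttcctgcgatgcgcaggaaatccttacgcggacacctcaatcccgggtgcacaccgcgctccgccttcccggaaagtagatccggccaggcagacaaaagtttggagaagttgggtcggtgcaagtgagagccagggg
Vgll4, chr4:149711137-149711436, minus strand: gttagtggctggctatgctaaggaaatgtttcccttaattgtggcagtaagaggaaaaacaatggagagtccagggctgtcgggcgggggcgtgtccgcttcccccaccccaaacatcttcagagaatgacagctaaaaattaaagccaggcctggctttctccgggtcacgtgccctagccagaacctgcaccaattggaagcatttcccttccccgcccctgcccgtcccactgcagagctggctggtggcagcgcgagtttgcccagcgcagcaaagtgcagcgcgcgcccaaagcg
Yap1, chr8:13451388-13451687, minus strand, shown as the effector gene: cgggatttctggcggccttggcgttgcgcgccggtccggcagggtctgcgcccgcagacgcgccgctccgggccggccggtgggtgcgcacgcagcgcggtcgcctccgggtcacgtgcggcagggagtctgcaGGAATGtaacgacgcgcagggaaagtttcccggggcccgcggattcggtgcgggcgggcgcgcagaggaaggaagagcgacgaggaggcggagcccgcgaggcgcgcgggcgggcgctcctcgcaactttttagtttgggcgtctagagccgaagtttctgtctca

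The motif began at position -76 in Amotl2, -236 in Ajuba and -116 in Yap1, counted with the start site as 1 and no position 0, and was not in this window of Vgll4. It was found in 7 of the 25 promoters of the listed genes that could be read (28%), those of Sav1, Mob1b, Amotl2, Ajuba, Ptpn14, Yap1 and Nuak2. Of 27457 RefSeq rat promoters of the same length, 13.9% held it. Only 1 of the 7 promoters of target genes had it, that of Nuak2. Of the 3 effector promoters that could be read, that of Yap1 had it, and those of Wwtr1 and Tead3 did not. The AP-1 core TGANTCA, either strand, was in 2 of the 25 (8.0%), Stk4 and Amotl1, against 7.33% of all promoters. Neither of these 2 promoters held GGAATG. The promoters of Lats2, Stk3, Tead1, Tead2, Tead4, Ankrd1, F3, Arhgef17, Dock5, Asap1 and Rbms3 were not used here.

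Amotl2 encodes an angiomotin-like protein that tethers YAP at junctions and actin, and the gene is itself a widely used YAP target. It was at 362, 342 and 403 CPM in blebbistatin replicates 1 to 3, and at 414, 448 and 426 CPM in DMSO replicates 1 to 3. The treated libraries were all lower. In deposited CPM blebbistatin replicate 3 was close to DMSO replicate 1, which TMM scaling moves further up. Amotl2 averaged 364 ± 29.5 TMM-scaled CPM with blebbistatin and 435 ± 15.7 TMM-scaled CPM with DMSO (SD, n = 3 each). The log2 fold change was -0.26 ± 0.12, with a 95% interval from -0.55 to 0.028 (limma adjusted p = 0.991, unadjusted p = 0.0705). This was the lowest p of the 36, and the value hardly moved without DMSO replicate 1 (-0.24 ± 0.11).

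Vgll4 encodes a cofactor that competes with YAP for TEAD factors. It was at 17.5, 17.0 and 16.4 CPM with blebbistatin and at 26.9, 19.2 and 19.2 CPM with DMSO. DMSO replicate 1 stood well above the other controls, which were themselves above each treated library. The log2 fold change was -0.38 ± 0.19 (limma adjusted p = 0.991), and -0.17 ± 0.13 without DMSO replicate 1. Ajuba encodes a LIM protein that is known to bind and restrain LATS kinases at tense junctions. It was at 143, 125 and 145 CPM with blebbistatin and at 102, 119 and 124 CPM with DMSO, so that blebbistatin replicate 2 and DMSO replicate 3 almost met. Its log2 fold change was 0.22 ± 0.12 (limma adjusted p = 0.991), and 0.18 ± 0.11 without DMSO replicate 1.

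Limd1, the other LIM gene of the list, whose protein also binds LATS, had a log2 fold change of -0.19 ± 0.20 and so pointed the other way from Ajuba, and its groups overlapped. The angiomotin genes Amot and Amotl1 had values of -0.22 ± 0.26 and -0.33 ± 0.36. Ptpn14, a phosphatase that holds YAP in the cytoplasm, was at -0.28 ± 0.26. For these 4 genes DMSO replicate 1 was the highest library, and without it the values were 0.0037, 0.040, 0.076 and 0.014 in the order Limd1, Amot, Amotl1 and Ptpn14. The median over the 7 regulators was -0.26 with all libraries and 0.014 without DMSO replicate 1.

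**Figure D3:**
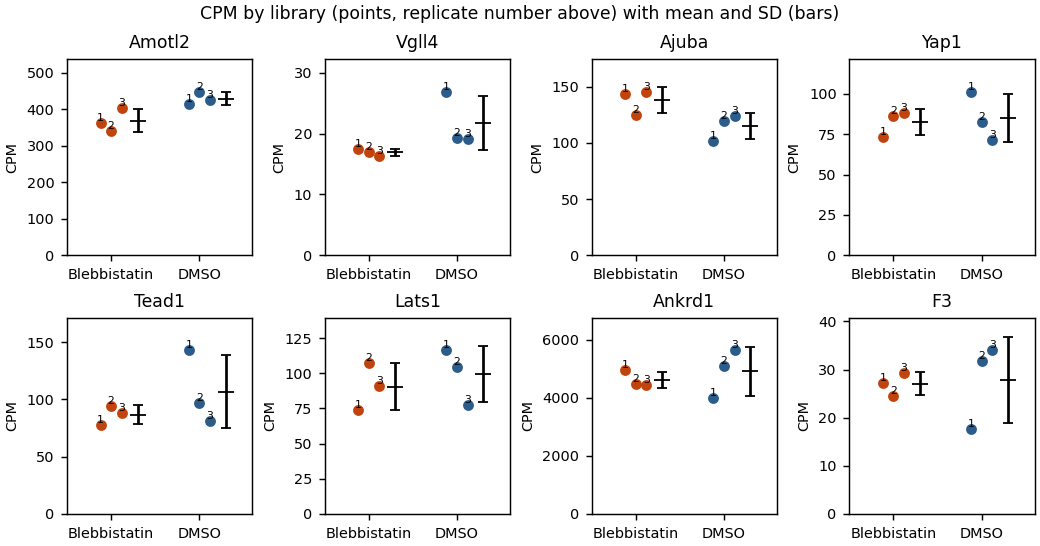
CPM in each library (points, labelled by replicate number) with the mean and SD of the group beside them, blebbistatin in orange and DMSO in blue; each vertical axis starts at 0. The groups are apart for Amotl2, Vgll4 and Ajuba and overlap for Yap1, Tead1, Lats1, Ankrd1 and F3, where DMSO replicate 1 is often at an end of the range.

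The effectors showed no separation of the groups. Yap1 was at 73.0, 85.9 and 88.1 CPM in blebbistatin replicates 1 to 3 and at 101, 82.3 and 71.4 CPM in DMSO replicates 1 to 3. The highest and the lowest values were both controls. Yap1 had a log2 fold change of -0.074 ± 0.19, with a 95% interval from -0.51 to 0.37, and 0.10 ± 0.14 without DMSO replicate 1. Wwtr1, which encodes TAZ, was at 50.5, 64.9 and 64.3 CPM with blebbistatin and at 55.5, 60.6 and 53.2 CPM with DMSO. Here the treated libraries held both ends of the range, and the log2 fold change was 0.040 ± 0.15, with a 95% interval from -0.31 to 0.39.

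The TEAD genes encode the DNA-binding partners of YAP and TAZ. Tead1 was at 78.0, 93.8 and 88.0 CPM with blebbistatin and at 143, 96.9 and 80.8 CPM with DMSO. The treated values lay below 2 of the 3 controls and around the third. Tead1 had a log2 fold change of -0.30 ± 0.24, and -0.030 ± 0.14 without DMSO replicate 1. Tead2 was at 37.5, 40.3 and 41.3 CPM with blebbistatin and at 35.99, 35.3 and 39.9 CPM with DMSO (log2 fold change 0.062 ± 0.12). It overlaps Cd37 in the RefSeq annotation, so its reads are uncertain. Tead4 was at 20.3, 20.6 and 18.1 CPM with blebbistatin and at 24.3, 19.0 and 18.8 CPM with DMSO, a log2 fold change of -0.10 ± 0.18. Tead3 had a log2 fold change of 0.020 ± 0.17, and -0.11 ± 0.13 without DMSO replicate 1, which was its lowest library. Tead4 turned to 0.064 without the same control, in which Tead1 and Tead4 were highest.

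The 13 target genes did not separate the groups either. Of their log2 fold changes 11 were negative and 2 positive, with a median of -0.11, and without DMSO replicate 1 also 11 were negative, with a median of -0.034. Their standard deviation was larger with DMSO than with blebbistatin for 12 of the 13, against 69.9% of all genes. Ankrd1, a cardiac ankyrin repeat gene that responds to load and is a standard YAP readout, was at 4942, 4482 and 4434 CPM in blebbistatin replicates 1 to 3, and at 3988, 5106 and 5633 CPM in DMSO replicates 1 to 3. DMSO replicate 1 was below all treated libraries and the other controls were above them. Ankrd1 had a log2 fold change of -0.11 ± 0.14, and -0.21 ± 0.11 without DMSO replicate 1.

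The targets with the lowest p were Dock5, Rbms3 and Arhgef17, and each was highest in DMSO replicate 1. Dock5, an exchange factor of Rac, was at 25.6, 32.3 and 30.0 CPM with blebbistatin and at 54.9, 33.7 and 28.7 CPM with DMSO. Its log2 fold change was -0.40 ± 0.28 (limma adjusted p = 0.991), and -0.086 ± 0.15 without DMSO replicate 1. The 2 other controls thus lay close to the treated libraries. The RNA-binding protein gene Rbms3 was at 15.1, 20 and 16.8 CPM with blebbistatin and at 27.6, 16.5 and 18.9 CPM with DMSO, a log2 fold change of -0.29 ± 0.25. The guanine nucleotide exchange factor gene Arhgef17 was at 184, 212 and 237 CPM with blebbistatin and at 332, 233 and 193 CPM with DMSO, a log2 fold change of -0.27 ± 0.24. Without DMSO replicate 1 the values of Rbms3 and Arhgef17 were -0.034 and -0.010.

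F3, chosen here after its values were seen, was lowest in DMSO replicate 1. It encodes tissue factor, the receptor that starts blood clotting, and was at 27.1, 24.6 and 29.4 CPM with blebbistatin and at 17.6, 31.7 and 34.0 CPM with DMSO. DMSO replicate 1 was below all treated libraries and the other controls above them, as for Ankrd1. F3 had a log2 fold change of -0.024 ± 0.22, and of -0.28 ± 0.13 without DMSO replicate 1. Without that library 5 of the 36 genes had all treated libraries below both controls (Amotl2, Vgll4, Ankrd1, F3 and Igfbp3), against 6.04% of all genes, and Ajuba was above them, against 6.07%. With that control, the groups of the 3 targets among them overlapped.

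The remaining targets were 8 genes. The receptor kinase gene Axl was at -0.070 ± 0.14, the membrane protein gene Crim1 at -0.21 ± 0.19, the kinase gene Nuak2 at -0.046 ± 0.16 and the Golgi-localised Fjx1 at -0.13 ± 0.17 (log2 fold changes). The Arf regulator gene Asap1 was at -0.16 ± 0.16, the ferlin gene Myof at -0.11 ± 0.16, the ecto-nucleotidase gene Nt5e at 0.013 ± 0.12 and the growth factor binding protein gene Igfbp3 at 0.024 ± 0.16. In these 8 genes the groups overlapped. Crim1, Asap1 and Myof were highest in DMSO replicate 1, and without it their log2 fold changes were -0.019 ± 0.12, -0.026 ± 0.13 and 0.016 ± 0.12. Fjx1 was at -0.21 ± 0.17 without that library. Nt5e and Arhgef17 overlap Snx14 and Mir3102 in the RefSeq annotation, which makes their reads uncertain. In all, 16 of the genes described here overlap another RefSeq gene, Vgll4 among them. For 4 of the 16 (Stk4, Tead2, Nt5e and Arhgef17) an overlapping gene is named in the deposited table. The effect of the other overlaps on the reads was not tested.

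**Figure D4:**
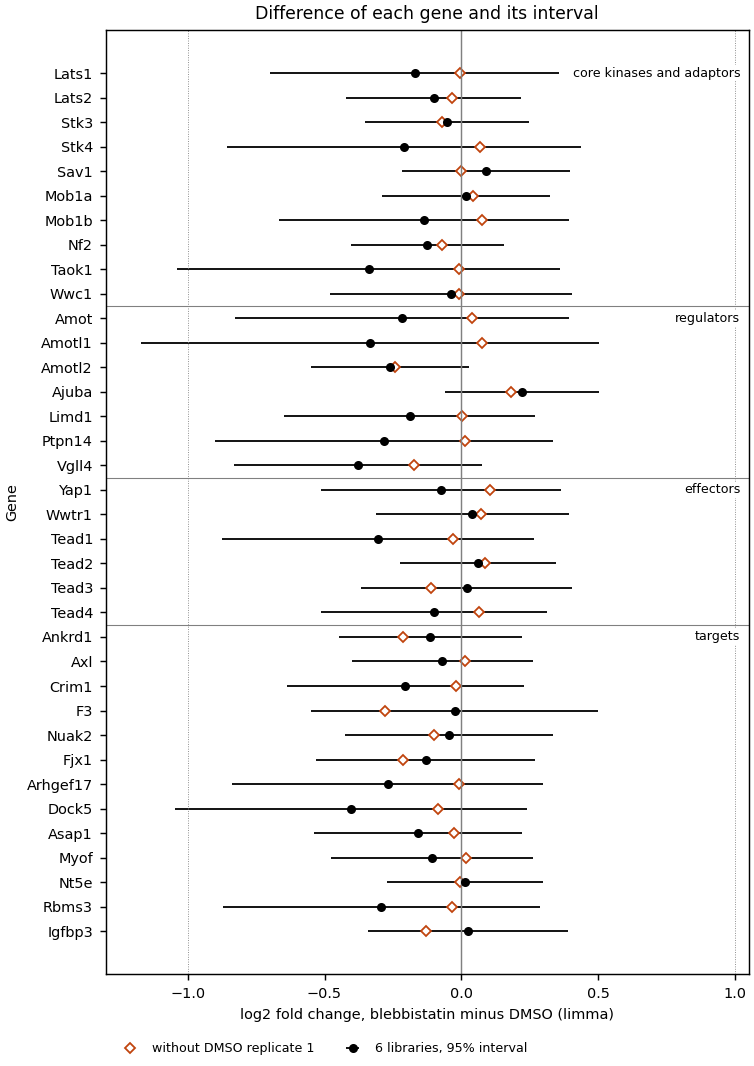
Black points are log2 fold changes (blebbistatin minus DMSO) with 95% intervals from limma over 6 libraries, for the 36 genes by role from top to bottom. Open diamonds are the values without DMSO replicate 1. Every interval includes 0, and most diamonds lie nearer to 0 than the points, with Ankrd1, F3, Fjx1, Nuak2 and Igfbp3 among those that moved away from it.

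Ratios between related genes, which do not depend on the scaling of a library, were compared as a description after the values were seen. The pairs and the direction of each ratio were chosen at that point too. A side shared by all pairs is therefore no result of its own. The log2 ratio of Yap1 to Wwtr1 was 0.53, 0.40 and 0.46 with blebbistatin and 0.87, 0.44 and 0.42 with DMSO. That of Tead1 to Tead3 was -0.85, -0.27 and -0.48 with blebbistatin and 0.59, -0.34 and -0.89 with DMSO. In both pairs, and also for Stk4 to Stk3, Lats1 to Lats2, Mob1b to Mob1a and Amotl1 to Amotl2, DMSO replicate 1 had the highest ratio of all 6 libraries. Between the group means the ratios differed by -0.32 (Tead1 to Tead3) to -0.069 (Lats1 to Lats2). Without DMSO replicate 1 the differences were 0.031 to 0.32, the last for Amotl1 to Amotl2.

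**Figure D5:**
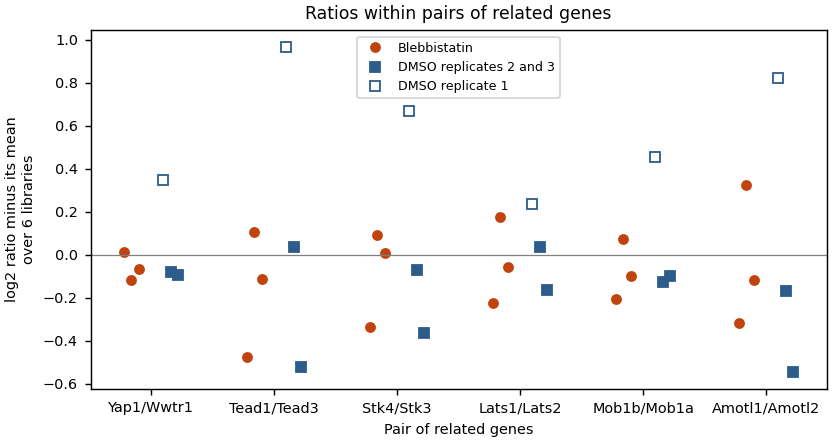
For 6 pairs of related genes the log2 ratio in each library is plotted relative to the pair's mean over 6 libraries, with circles for blebbistatin, filled squares for DMSO replicates 2 and 3 and an open square for DMSO replicate 1. The open square is the highest point of every pair, with pairs and ratio directions chosen after the values were seen. The other controls lie among or below the treated libraries.

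Genes of the pathway outside the 36 were read from lists of names. The lists were drawn up with earlier results of these data known, so their counts are a description only. Of 73 further Hippo genes listed, 68 were tested. Limma called 0 of them, and the median log2 fold change was -0.054. At an unadjusted p under 0.05, 2 of the 68 were higher and 0 lower, against 0.743% and 0.776% of all genes. Without DMSO replicate 1 it was 1 higher and 1 lower, against 0.73% and 0.848% of all genes, and the median was 0.015. The lowest p belonged to Rassf6, a scaffold that binds MST kinases, at 0.388, 0.474 and 0.811 CPM with blebbistatin and at 0.165, 0.134 and 0.0648 CPM with DMSO. These values stand for few reads, since 3 reads are worth 0.0474 to 0.0503 CPM. The 3 blebbistatin libraries alone brought Rassf6 past the filter on low values (0.162 CPM), and DMSO replicates 2 and 3 lay below that level. Rassf6 was 1 of the 2 genes counted as higher. Its log2 fold change was 0.734 and 0.455 with pseudocounts of 0.5 and 1 CPM. With the main pseudocount of 0.1 CPM it was 1.52 ± 0.45 and did not pass (limma adjusted p = 0.991). Strip2, a subunit of the STRIPAK phosphatase complex that opposes MST kinases, had a value of 0.52 ± 0.20. The values of the giant cadherin gene Fat4 and the STRIPAK subunit gene Sike1 were -0.43 ± 0.26 and 0.19 ± 0.12. Fat4 was highest in DMSO replicate 1, at 77.2 CPM, and its value was -0.14 ± 0.16 without that library.

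Of 40 names of further YAP and TAZ targets listed, some of them older and newer names of 1 gene, 33 were tested. This list too was drawn up with earlier results known, so its counts are not independent of these data. Limma called 0, and the median log2 fold change was -0.090. At an unadjusted p under 0.05, 3 of the 33 were lower and 0 higher, against 0.776% and 0.743% of all genes. Without DMSO replicate 1 it was 5 lower and 0 higher, against 0.848% and 0.73% of all genes, and the median was -0.036. Ccn1 (CYR61 in the table), a secreted matricellular protein gene, was at 376, 523 and 522 CPM with blebbistatin and at 1185, 1025 and 889 CPM with DMSO. Its log2 fold change was -1.17 ± 0.21 (limma adjusted p = 0.765), so it lay outside the range of -0.40 to 0.22 of the 36 genes, although it did not pass either. Edn1, the gene of the peptide endothelin 1, was at -0.87 ± 0.27 and the activin subunit gene Inhba at -0.67 ± 0.21. DMSO replicate 1 was the highest library for Inhba and the lowest control for Edn1. Without it Inhba was at -0.43 ± 0.11, and Edn1 at -1.19 ± 0.14 (limma adjusted p = 0.0531). For these 3 genes all treated libraries were below all DMSO libraries after TMM scaling. Of the 33 targets, 4 were separated in this way and 0 the other way, against 2.89% and 3.24% of all genes. Ctgf, another CCN family gene of this list, was not among the 4. Its groups overlapped, at -0.20 ± 0.19 on the log2 scale. DMSO replicate 1 was the lowest library for Ctgf, and without that control its value was -0.39 ± 0.12.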

How the data were processed

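RNA libraries were 3 with blebbistatin and 3 with DMSO. The authors' deposited table holds CPM values, although its name speaks of counts: every column has the same total. Per the submitters' processing notes, the tools were BWA, MACS2 2.1.0, Trim Galore, HISAT2 2.1.0, edgeR 3.20.9 and StringTie 1.3.4 with build rn6, for RNA and chromatin samples together. Annotation and strandedness are not given in the sources used here. From the spacing of low values (97.5 to 98.1% of values between 0.01 and 1 CPM are whole multiples of a step, within 0.02), 1 read is worth 0.0158 to 0.0168 CPM, which gives 59.6 to 63.2 M reads per library. Whole reads were not recovered for all genes, so no count model was used. Floors cover counting error only.

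Values were divided by unweighted TMM factors (trims of 0.3 and 0.05; factors 0.928 to 1.03) and tested as log2(scaled CPM + 0.1) with limma 3.58.1 in R 4.3.3 (trend, robust, two-sided, no block). This fold change understates changes of low genes. A gene was tested if 3 or more libraries had at least 0.162 CPM, the worth of 10 reads. Library values are deposited CPM, and group means ± SD use TMM-scaled CPM. The 36 genes, the further lists and the rules were chosen with earlier results of these data known. Values in every library are given for the 3 genes with the lowest p in each role, for Yap1, Wwtr1, Tead1, Lats1, Lats2, Amotl2 and Ankrd1, and for some of the 4 lowest of each further list, of which 1 gene is not reported here. All 36 names matched a RefSeq symbol. Overlaps and promoters are from RefSeq on GRCr8. The procedure was also run on simulated data, with the gene spreads shuffled and no library unlike the rest. That run does not cover a library such as DMSO replicate 1, and its outcome is not given here. Alternatives covered scaling, filter, pseudocount, eBayes setting, threshold, replicate block and leaving out each library. No library duplicates another (chi-square per degree of freedom of at least 35.7 for each pair). The lowest value was that of blebbistatin replicate 1 and DMSO replicate 3, a pair across groups. Within a group the lowest was 53.8, for blebbistatin replicates 2 and 3.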

Additional observations from a re-analysis of the deposited data

How the results depend on the processing

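The count of 0 changed genes among the 36 was 0 under every alternative run: the scalings, filters, pseudocounts, robust=FALSE, the replicate block, an adjusted p under 0.1 and leaving out each library. The count at an unadjusted p under 0.05 was 0 as well, except without DMSO replicate 3, where 4 genes were lower (Amot -0.497, Dock5 -0.621, Taok1 -0.629 and Tead1 -0.508), against 2.86% of all genes. There DMSO replicate 1 is 1 of only 2 controls. With 1 library left out the count ran from 0 to 4 such genes and 2 to 3 lower and 0 to 4 higher calls over all genes, 3 to 6 in total against 3 with all libraries (6 without DMSO replicate 1 and 6 without DMSO replicate 3). With the replicate block 2 genes were called over all genes, and 0 of the 36. Libraries with the same number had deviations from the group mean that correlated at -0.289, 0.0542 and -0.092, so the pairing by number is not borne out. The highest correlation between a treated and a control library was 0.376, for blebbistatin replicate 1 and DMSO replicate 3. Of 324 values of single genes under the other alternatives 322 kept their sign and stayed on their side of the threshold. Without further scaling, Wwc1 was at 0.00106 and F3 at 0.0145 and so changed sign. Of 216 values with a library left out, 185 kept their direction, and 31, in 20 genes, changed sign. Log2 fold changes then ran from -0.125 to 0.0117 for Stk3, -0.451 to 0.0677 for Stk4, -0.00212 to 0.161 for Sav1, -0.0463 to 0.0972 for Mob1a, -0.278 to 0.0759 for Mob1b, -0.155 to 0.05 for Wwc1, -0.497 to 0.0405 for Amot, -0.651 to 0.0765 for Amotl1, -0.36 to 0.00366 for Limd1, -0.448 to 0.0136 for Ptpn14. They ran from -0.216 to 0.104 for Yap1, -0.0345 to 0.168 for Wwtr1, -0.109 to 0.155 for Tead3, -0.19 to 0.0639 for Tead4, -0.153 to 0.0137 for Axl, -0.279 to 0.125 for F3, -0.104 to 0.0663 for Nuak2, -0.203 to 0.0159 for Myof, -0.0531 to 0.0573 for Nt5e and -0.129 to 0.128 for Igfbp3. The cause was not tested. With 3 libraries per group, differences smaller than the 95% intervals could not be resolved.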
